A study of Mus musculus with 9 samples.

Results

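The response common to both exposures was read from all 9 small RNA libraries of the series, by setting the 6 libraries of exposed B16F1 cells against the 3 libraries of control cells. B16F1 is an established, pigmented mouse melanoma line from the C57BL/6 strain. Control cells received neither agent, and the exposed cells received 5 mM L-Tyr (L-tyrosine, the substrate from which melanin is made) in 3 libraries or 5-Brd-2′-dU (bromodeoxyuridine, an analog of thymidine that is built into DNA) at 2.5 µg/mL in the other 3, for 72 h without a change of medium. All groups are the same line, and the design text gives the replicates as independent. Each exposure had equal weight, so that the average of L-Tyr and 5-Brd-2′-dU was compared with control cells. The question is which miRNAs moved the same way with an agent that darkens these cells and with one that lightens them.

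A miRNA is cut from a hairpin precursor, whose left and right strands give the 5p and the 3p arm. The mature strand is loaded into an Argonaute protein and lowers the output of mRNAs that pair with its seed, bases 2 to 8 from the 5′ end, so that miRNAs with the same seed form a family with overlapping targets. In melanocytes and melanoma, the let-7 family restrains growth genes such as Ras and Hmga2, members of the miR-17-92 cluster and its paralogs promote the cell cycle, and miR-211 is made from an intron of Trpm1, a gene driven by the pigment cell factor Mitf.

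The mature sequences of the miRNAs on which the comparison turns are shown here 5′ to 3′ with the seed in capitals, as listed by RefSeq for GRCm38.p6; of the 23 miRNAs chosen by the naming rule, 21 had a sequence there. Those that lay higher after both exposures come before those that lay lower, and miR-211-5p, whose estimates for the agents had opposite signs, closes the set.
miR-129-5p: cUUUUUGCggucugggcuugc
miR-129-2-3p: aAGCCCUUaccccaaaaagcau
miR-22-3p: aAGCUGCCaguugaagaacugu
miR-99b-5p: cACCCGUAgaaccgaccuugcg
miR-99a-5p: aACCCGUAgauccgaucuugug
miR-191-5p: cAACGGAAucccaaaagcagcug
miR-3963: uGUAUCCCacuucugacac
miR-130b-5p: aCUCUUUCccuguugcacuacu
miR-148b-3p: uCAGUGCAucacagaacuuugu
miR-30a-3p: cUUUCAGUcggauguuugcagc
let-7a-5p: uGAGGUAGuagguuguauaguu
let-7d-5p: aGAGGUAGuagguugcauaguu
miR-211-5p: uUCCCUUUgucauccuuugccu
The sequences show 2 shared seeds, ACCCGUA in miR-99a-5p and miR-99b-5p and GAGGUAG in the let-7 pair, while both arms of the miR-129 hairpins come from the same precursors and carry unlike seeds.

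The deposited table lists short sequence tags, no longer than 20 nt, with the hairpin each was placed in and its count per library. Total counts ran from 144452 to 424122 per library. Tags of known hairpins were summed by hairpin name and arm, with numbered copies of a hairpin merged, which gave 504 names, and 248 of them had enough counts to be tested. Levels are counts per 1000000 of the TMM-scaled library total (CPM). A single library, replicate 3 of 5-Brd-2′-dU, stood furthest apart: miR-143-3p, a miRNA of fibroblasts and smooth muscle, reached 269276 CPM there and lay between 1076 and 6772 CPM in the other 8 libraries. In that library the 5 fibroblast and smooth muscle hairpins summed to 201371 CPM of the unscaled total, against 1669.9 to 3537 in control cells. miR-143-3p made up most of that sum, at 19.7% of known-hairpin counts. Of the 4 tested names in that list, 2 had positive and 2 negative log2 fold changes for both exposures together. The negative ones were miR-199a-3p at −0.26 and miR-199b-3p at −0.23. In replicate 3 of 5-Brd-2′-dU, 45.9% of placed counts began at the first base of the mature sequence, against 26.7% to 30.4% in the others. Of the melanocyte markers, miR-211-5p was found in every library at 6510.1 CPM or more, and miR-204-5p had 0 to 14 counts. In bulk libraries, fewer cells of a type and less of a miRNA per cell cannot be told apart.

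Among the names that passed the test, the largest change was a loss of counts under the hairpin of miR-3963, and the shared rises were those of both arms of miR-129 and of miR-22-3p. A name was called when its p from the quasi-likelihood test of edgeR, adjusted by Benjamini-Hochberg over all names tested, was under 0.05. For both exposures against control 4 of the 248 names were called (1.61%), 3 higher (1.21%) and 1 lower (0.403%). At an unadjusted p under 0.05 there were 34 names (13.7%), 16 higher (6.45%) and 18 lower (7.26%). For L-Tyr alone the calls numbered 5 (2.02%), 4 higher (1.61%) and 1 lower (0.403%), or 1 and 1 with the size factors of DESeq2. For 5-Brd-2′-dU alone they numbered 16 (6.45%), 10 higher (4.03%) and 6 lower (2.42%), or 10 and 3 with the size factors of DESeq2 and 9 and 2 with total counts. The higher calls included miR-143-3p and the endothelial marker miR-126a-3p. By edgeR's test without replicate 3 of 5-Brd-2′-dU, their adjusted p was 0.522 and 0.744. The comparisons of the 2 agents with control use the same 3 control libraries, so that their calls are not independent of each other. In a description without a test, all 6 exposed libraries lay above all 3 control libraries in 9 names (3.63%) and below them in 14 (5.65%), 23 in all (9.27%). With scaling by total count in place of TMM, these were 9 and 9 names, and without replicate 3 of 5-Brd-2′-dU they were 12 and 15. With total counts, miR-130b-5p, miR-30a-3p and miR-99a-5p, described below, overlapped the controls.

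The counts under miR-3963, a hairpin of little known function at chr3:150686756-150686826 on the minus strand of NCBIM37 (mm9) outside annotated genes, fell with both agents. They made up 13.8%, 16.6% and 22.4% of known-hairpin counts in the control libraries, 5.12%, 4.89% and 4.75% with L-Tyr, and 4.97%, 4.49% and 4.17% with 5-Brd-2′-dU. All 6 exposed libraries lay well below all 3 control libraries, and the exposed libraries differed little among themselves. The mean share was 17.6% ± 4.38 (SD, n = 3) in control cells and 4.73% ± 0.348 (SD, n = 6) in exposed cells, a difference of −12.8 percentage points (two-sided exact permutation test, p = 0.0238, the smallest that 6 against 3 libraries allow). Relative to the counts of all other names, control cells held 4.34 times as much as exposed cells. On the CPM scale the log2 fold change came to −2.02 (SE 0.22) with an adjusted p of 0.000276, against −2.06 for L-Tyr (adjusted p = 0.0021) and −1.97 for 5-Brd-2′-dU (adjusted p = 0.00309). The agents differed by 0.09 on the log2 scale, with a 95% interval from −0.49 to 0.66.

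**Figure D1:**
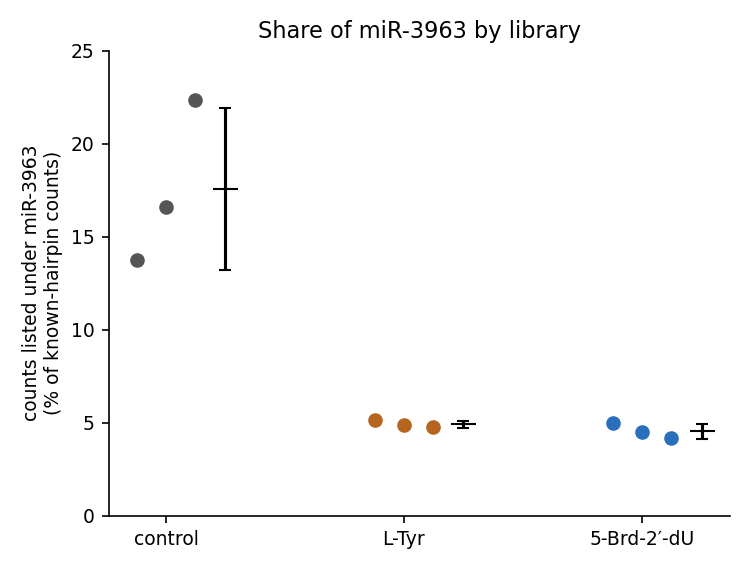
Share of known-hairpin counts listed under miR-3963, in percent, for each library (points) of the control, L-Tyr and 5-Brd-2′-dU groups, with the mean and SD of each group of 3 beside them. The 6 exposed libraries sit between 4.17% and 5.12%, below the lowest control library at 13.8%.

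Of the counts under the name, 99.9% lay in 1 tag of 18 nt, shown because the name rests on it; its last 2 bases, in capitals, are not in the RefSeq hairpin.
miR-3963 tag: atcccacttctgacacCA
The tag matched the hairpin over its first 16 bases and lacked the opening bases of the listed mature miRNA, so that the seed printed above is not whole in it. The full 18 bases had 0 exact matches in the NCBIM37 genome. The tag ends in CCA, the ending that cells add to transfer RNAs after transcription; whether these reads came from the miR-3963 hairpin was not tested.

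Both arms of miR-129 rose with both agents. This miRNA, known as a growth restraint in several tumours, comes from a pair of hairpins, Mir129-1 at chr6:28972619-28972691 (plus strand) and Mir129-2 at chr2:94081521-94081610 (minus strand), neither inside another annotated gene. miR-129-5p lay at 5201, 5234 and 5918 CPM in control cells, at 11761, 12889 and 10533 CPM with L-Tyr and at 19957, 13011 and 11792 CPM with 5-Brd-2′-dU. The 3 control libraries were close together and the lowest exposed library was far above them. The mean was 5451 ± 405 CPM (SD, n = 3) in control cells and 13324 ± 3372 CPM (SD, n = 6) in exposed cells, a log2 fold change of 1.28 (SE 0.213, adjusted p = 0.00844). Each exposure passed by itself, L-Tyr at 1.11 (adjusted p = 0.0329) and 5-Brd-2′-dU at 1.45 (adjusted p = 0.00681).

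The opposite arm, miR-129-3p, lay at 985, 1448 and 1848 CPM in control cells, at 7376, 3001 and 7174 CPM with L-Tyr and at 4007, 3839 and 3749.5 CPM with 5-Brd-2′-dU. L-Tyr replicates 1 and 3 were highest, replicate 2 was lowest among the exposed, and no exposed library reached down to the controls. For both exposures the log2 fold change reached 1.74 (SE 0.328; adjusted p, 0.0174), with 2.03 for L-Tyr (adjusted p = 0.0152) and 1.44 for 5-Brd-2′-dU (adjusted p = 0.0398). Between the agents, the log2 difference was 0.35 (95% interval −0.16 to 0.85) for the 5p arm and −0.60 (−1.36 to 0.16) for the 3p arm. Of 19 tested tag entries of miR-129-5p, 18 were higher, as were 12 of 13 of miR-129-3p. A sequence listed under both hairpins counts once for each, and tags of 1 arm are not independent observations. With the copies kept apart, an alternative chosen after seeing the data, the 3p arm of Mir129-2 was higher by 1.91 (adjusted p = 0.00507) and that of Mir129-1 by 1.18 (adjusted p = 0.402). The call of miR-129-5p was lost without control replicate 1 (adjusted p = 0.0992) or control replicate 2 (adjusted p = 0.0612), and that of miR-129-3p without either of these or without L-Tyr replicate 1 or 3 (adjusted p from 0.0907 to 0.158), each time with the same sign.

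miR-22-3p, which is known to promote senescence when raised in fibroblasts and tumour cells, was the third name to rise. It lies at chr11:75277218-75277312 (plus strand) in an exon of the noncoding transcript 2210403K04Rik and of Tlcd2. Its level was 3027, 2296 and 3077 CPM in control cells, 3932, 5203 and 3793 CPM with L-Tyr and 6378, 7626 and 6284 CPM with 5-Brd-2′-dU. The 3 groups did not overlap, L-Tyr lying between control cells and 5-Brd-2′-dU. For both exposures the log2 fold change reached 0.95 (SE 0.208; adjusted p, 0.0437); 5-Brd-2′-dU passed alone at 1.27 (adjusted p = 0.0101), and L-Tyr gave 0.62 (adjusted p = 0.263). The difference between agents was 0.65 (95% interval 0.15 to 1.15, adjusted p = 0.172). All 7 tested tags of the name were higher. The call was lost when any single library other than replicate 1 of 5-Brd-2′-dU was left out, with adjusted p from 0.0518 (without replicate 3 of 5-Brd-2′-dU) to 0.28 (without control replicate 2), always with the same sign. It was also lost with total counts (0.0602), no filter (0.0971), a block for the replicate number (0.11) and exposed libraries as 1 group (0.136). The same held with tags under 1 hairpin only (0.0556) and tags of at least 17 nt (0.0508). In all, miR-22-3p was called in 9 of 23 alternatives. A copy of the miR-22 hairpin listed among predicted hairpins and left out of these sums showed 1469 to 1756 CPM of the unscaled total in control libraries and 2926 to 5218 in exposed libraries, without overlap.

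Below the threshold, 4 abundant names, miR-99b-5p, miR-99a-5p, miR-191-5p and miR-30d-5p, lay higher in every exposed library than in every control library. miR-99b-5p, whose family is known to restrain mTOR and the IGF1 receptor, lay at 28187, 32118 and 41289 CPM in control cells, 60212, 41634 and 56272 CPM with L-Tyr and 85990.4, 61015 and 63662 CPM with 5-Brd-2′-dU. Control replicate 3 nearly reached L-Tyr replicate 2, and the other libraries were well separated. The log2 fold change of 0.85 (SE 0.212) had an adjusted p of 0.0746, and 5-Brd-2′-dU alone passed at 1.05 (adjusted p = 0.0374), with 0.64 for L-Tyr (adjusted p = 0.263). Its seed relative miR-99a-5p gave 0.40 (SE 0.193, adjusted p = 0.387), also without overlap, though replicate 3 of 5-Brd-2′-dU (16089 CPM) came close to control replicate 3 (15971 CPM). With scaling by total count that exposed library lay below control replicate 3. The remaining tested carrier of the seed, miR-100-5p, overlapped the controls at 1.65 (SE 1.24, adjusted p = 0.594), with 4545 CPM in replicate 3 of 5-Brd-2′-dU and at most 267 CPM in the other libraries. Without that library its value was 0.17, and for L-Tyr alone it was −0.82. Mir99b lies at chr17:17967152-17967221 (plus strand), and its opposite arm miR-99b-3p gave −0.22 (SE 0.395).

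miR-191-5p, at chr9:108470650-108470723 (plus strand), lay at 7348, 7724 and 7974 CPM in control cells, 10759.5, 9725 and 11358 CPM with L-Tyr and 11931, 12883 and 15301 CPM with 5-Brd-2′-dU. The controls were tightly grouped below both exposed groups, and 5-Brd-2′-dU was the higher of the agents. For both exposures the log2 fold change reached 0.63 (SE 0.169; adjusted p, 0.0746), with 0.80 for 5-Brd-2′-dU (adjusted p = 0.0374) and 0.47 for L-Tyr (adjusted p = 0.299). miR-30d-5p, at chr15:68172770-68172851 (minus strand), lay at 22394, 23216 and 21497 CPM in control cells, 46212, 41486 and 41846 CPM with L-Tyr and 24983, 23854 and 33895 CPM with 5-Brd-2′-dU. Here L-Tyr was the higher agent, and 2 of the 5-Brd-2′-dU libraries were only just above the controls. The log2 fold change for both was 0.63 (SE 0.176, adjusted p = 0.086); L-Tyr alone passed at 0.95 (adjusted p = 0.0329), 5-Brd-2′-dU gave 0.30 (adjusted p = 0.489), and the difference between them of −0.65 did not pass (adjusted p = 0.117). Of the other names above all controls, miR-6236-3p lay at 253.0 to 616 CPM against 134 to 189 CPM, and miR-1964-3p at 62.9 to 290.4 CPM against 0 to 52.4 CPM. The control libraries alone could not take the scarce miR-1964-3p through the filter, so that a higher level was favoured.

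**Figure D2:**
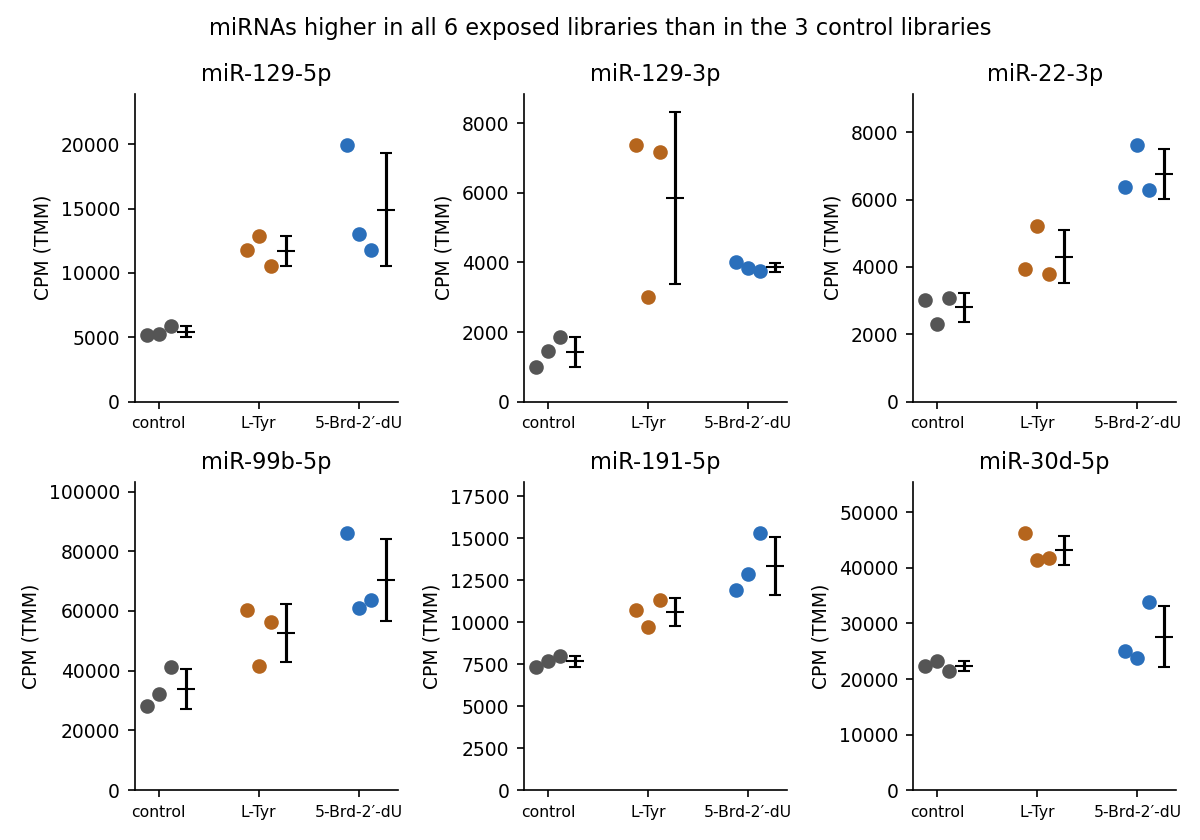
CPM of 6 miRNAs in each library (points, linear axes from 0) of the control, L-Tyr and 5-Brd-2′-dU groups, with the mean and SD of each group of 3. No exposed library falls to the level of a control library, and miR-99b-5p (41634 CPM in L-Tyr replicate 2 against 41289 in control replicate 3) comes closest.

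Among the losses besides miR-3963, none passed the test, and the abundant names that lay lower in all exposed libraries were led by miR-130b-5p and miR-148b-3p. miR-130b-5p, from an intron of 2610318N02Rik at chr16:17124154-17124235 (minus strand), lay at 4310.3, 3933 and 2504 CPM in control cells, 2233, 2389.5 and 1963 CPM with L-Tyr and 1600.3, 1360.4 and 1601 CPM with 5-Brd-2′-dU. Control replicate 3 was the lowest control and still above L-Tyr replicate 2 on this scale, but not with scaling by total count. For both exposures the log2 fold change reached −0.97 (SE 0.241; adjusted p, 0.0746), and 5-Brd-2′-dU alone passed at −1.24 (adjusted p = 0.0374). Without control replicate 3, the shared value was −1.20 and passed (adjusted p = 0.0373), the only pass in 9 fits that left out 1 library. Over all 23 alternatives it was called in 3.

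miR-148b-3p, a relative of the miR-148 family that is known to target Mitf, comes from an intron of Copz1 at chr15:103115556-103115652 (plus strand). It lay at 3404, 4313 and 4417 CPM in control cells, 1969, 1985 and 640.1 CPM with L-Tyr and 788, 2155 and 1882 CPM with 5-Brd-2′-dU. Replicate 3 of L-Tyr and replicate 1 of 5-Brd-2′-dU were much lower than the other exposed libraries. For both exposures the log2 fold change reached −1.36 (SE 0.384; adjusted p, 0.086), close to equal for L-Tyr (−1.40) and 5-Brd-2′-dU (−1.33), with a 95% interval of their difference from −0.93 to 1.08. All 11 tested tags of the name were lower. Its seed relative miR-152-3p gave −0.61 (SE 0.407, adjusted p = 0.537).

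miR-30a-3p, the opposite strand of the growth-linked miR-30a-5p, lay at 4022, 4077 and 4468 CPM in control cells, 3045, 3619 and 2909.6 CPM with L-Tyr and 2673, 1892 and 1379 CPM with 5-Brd-2′-dU. The log2 fold change was further below 0 with 5-Brd-2′-dU (−1.08, adjusted p = 0.0405) than with L-Tyr (−0.39, adjusted p = 0.643) in estimate, while the difference had an adjusted p of 0.3. The shared value was −0.74 (SE 0.237, adjusted p = 0.136), while the 5p arm of the same hairpin gave 0.13 (SE 0.268), or −0.07 without replicate 3 of 5-Brd-2′-dU. Both arms of miR-181b lay lower, miR-181b-5p at 646 to 1415 CPM against 1514 to 1964 CPM (log2 fold change −0.74, adjusted p = 0.355) and miR-181b-3p at 0 to 78.6 CPM against 118 to 340.4 CPM (adjusted p = 0.205). The scarce miR-181b-3p could pass the filter through its control libraries alone, so that a lower level was favoured.

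Several scarce names were found in the controls and were at or near 0 in most exposed libraries; they passed the filter through the control libraries, so that they had to differ. miR-3074-3p had 23, 50 and 50 counts in the control libraries, 0 in all 3 L-Tyr libraries and 0, 0 and 2 counts with 5-Brd-2′-dU, at least 30.7-fold lower with L-Tyr when 3 counts over the group are taken as the limit (adjusted p = 0.0746 for both exposures). miR-421-3p had 14, 43 and 47 counts in control cells, 0 in the L-Tyr libraries and 0, 19 and 17 with 5-Brd-2′-dU (adjusted p = 0.186). Mir3074-1 lies at chr13:63402507-63402591 (minus strand), opposite an intron of 2010111I01Rik, and Mir421 at chrX:100768260-100768335 (minus strand) in an intron of the noncoding B230206F22Rik. The remaining names below all controls were miR-7667-3p, miR-340-3p, miR-140-3p, miR-107-3p, miR-18a-5p and miR-674-5p, with adjusted p from 0.251 to 0.662.

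**Figure D3:**
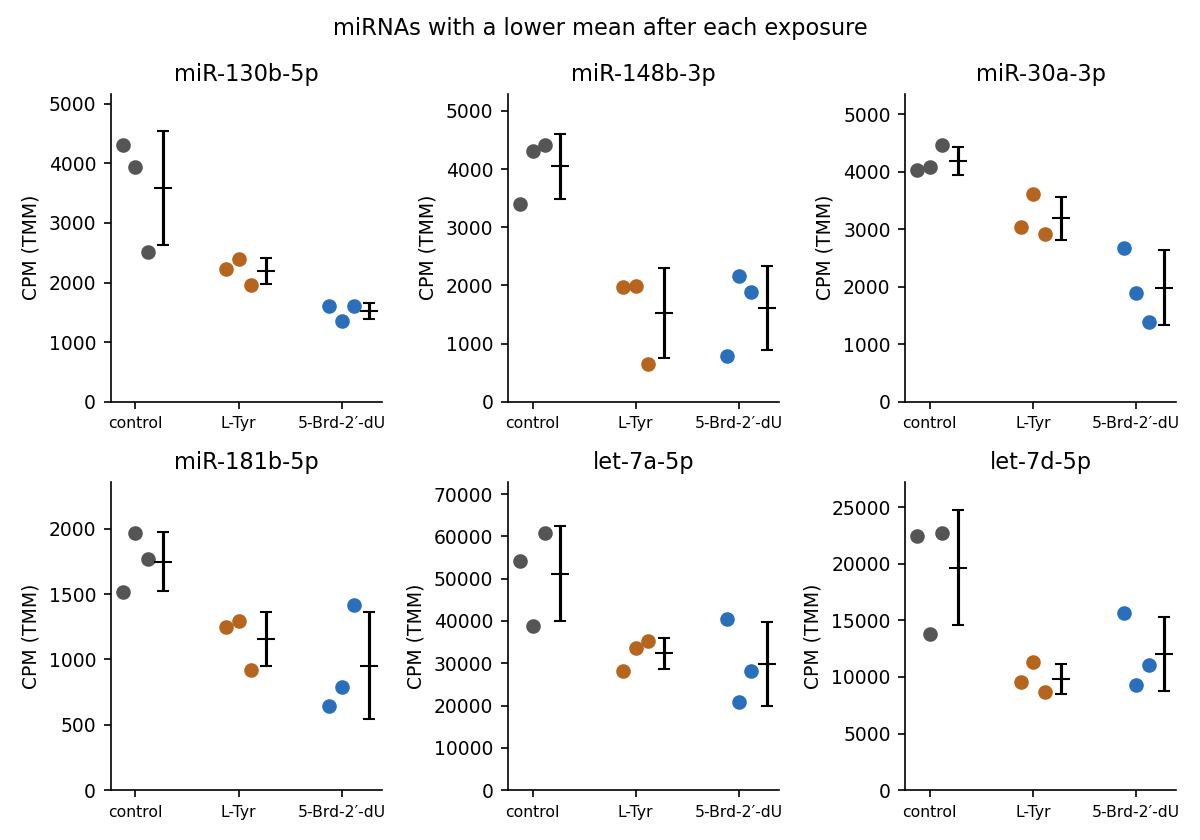
CPM of 6 miRNAs in each library (points, linear axes from 0) of the control, L-Tyr and 5-Brd-2′-dU groups, with the mean and SD of each group of 3. On the TMM scale plotted, the exposed libraries lie below the controls in miR-130b-5p, miR-148b-3p, miR-30a-3p and miR-181b-5p. With total counts, miR-130b-5p and miR-30a-3p overlap the controls. In let-7a-5p and let-7d-5p replicate 1 of 5-Brd-2′-dU reaches above the lowest control library.

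The let-7 family, which restrains growth genes, lay lower in estimate on its mature 5p arms. All 9 tested names with the seed GAGGUAG had negative log2 fold changes, from −0.86 to −0.07 with a median of −0.42, and 0 passed edgeR's test; with scaling by total count 8 of 9 were negative. let-7d-5p was lowest at −0.86 (SE 0.221, adjusted p = 0.0746), with 22494, 13772 and 22684 CPM in control cells, 9528, 11278 and 8687 CPM with L-Tyr and 15636, 9309 and 11029.7 CPM with 5-Brd-2′-dU. let-7a-5p followed at −0.72 (SE 0.225, adjusted p = 0.123), with 54085, 38852 and 60702 CPM in control cells, 28218, 33714 and 35243 CPM with L-Tyr and 40536, 20834 and 28085 CPM with 5-Brd-2′-dU. In both, control replicate 2 was the lowest control, and replicate 1 of 5-Brd-2′-dU overlapped it. Without that exposed library the shared value passed for let-7d-5p (−1.0, adjusted p = 0.0299) and for let-7a-5p (−0.89, adjusted p = 0.0435). For each this was the only pass in 9 fits that left out 1 library. Over all 23 alternatives let-7d-5p was called in 3 and let-7a-5p in 2. Of the abundant members, let-7c-5p gave −0.42 (SE 0.239) and let-7b-5p −0.07 (SE 0.244). Over both arms of the 9 hairpins, 16 names were tested and 11 were negative. By edgeR 3 were lower at an unadjusted p under 0.05 and 0 were called. Their median was −0.36, against −0.09 over all 248 names, of which 136 were negative.

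The cell cycle cluster miR-17-92 with its paralogs lay lower in nearly every tested name. Of its 13 hairpins 11 had counts and gave 13 tested names. Of these 12 were negative, against 136 of all 248 names, with a median log2 fold change of −0.57 against −0.09 over all names. By edgeR 0 were called and 2 had an unadjusted p under 0.05, both lower, against 7.26% lower at that level over all names. The most abundant, miR-92a-3p, gave −0.26 (SE 0.242, adjusted p = 0.678), and miR-106b-3p −0.40 (SE 0.211, adjusted p = 0.437). miR-25-3p lay at 3409, 3927 and 3585 CPM in control cells, 2774, 3074 and 3931 CPM with L-Tyr and 1695, 1904 and 1955 CPM with 5-Brd-2′-dU, so that L-Tyr overlapped the controls and 5-Brd-2′-dU did not. It passed for 5-Brd-2′-dU (−0.98, adjusted p = 0.0405) and not for both (−0.57, adjusted p = 0.2). With scaling by total count, 11 of the 13 names were negative.

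Lists linked to senescence and to p53 lay higher in estimate. Of 10 tested names from miRNAs linked to senescence, 8 were positive, with a median of 0.87, and 1, miR-22-3p, was called, beside 112 positive and 1.61% called among all 248 names. Taken by agent, the list had a median of 1.36 with 5-Brd-2′-dU against 0.32 with L-Tyr. The call was lost with total counts and without replicate 3 of 5-Brd-2′-dU, where 7 of 10 names were positive. Of its abundant members, miR-24-3p gave 0.21 (SE 0.171) and miR-29a-3p −0.35 (SE 0.23). The 3 tested names induced by p53, miR-192-5p, miR-194-5p and miR-34b-3p, were positive with SE from 1.14 to 2.06, and 0 were called by edgeR, nor did any reach an unadjusted p under 0.05; without replicate 3 of 5-Brd-2′-dU, 2 of 3 were positive. The pigmentation list had 8 tested names, 6 negative, 0 called and a median of −0.54, and included miR-148b-3p and the scarce miR-340-3p among its lower members. With 0 counts in the L-Tyr libraries, miR-340-3p could not pass the filter through them, so that a lower value there was favoured. The miR-30 family had 4 positive and 5 negative names of 9, the miR-15/16 family 5 and 4 of 9, the miR-125 family 3 and 1 of 4, and a list of miRNAs of melanoma progression 4 and 4 of 8, with 0 calls in each. Without replicate 3 of 5-Brd-2′-dU the miR-30 family had 3 and 6, and the melanoma progression list 3 and 5. No list was called in full or tested as a whole.

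**Figure D4:**
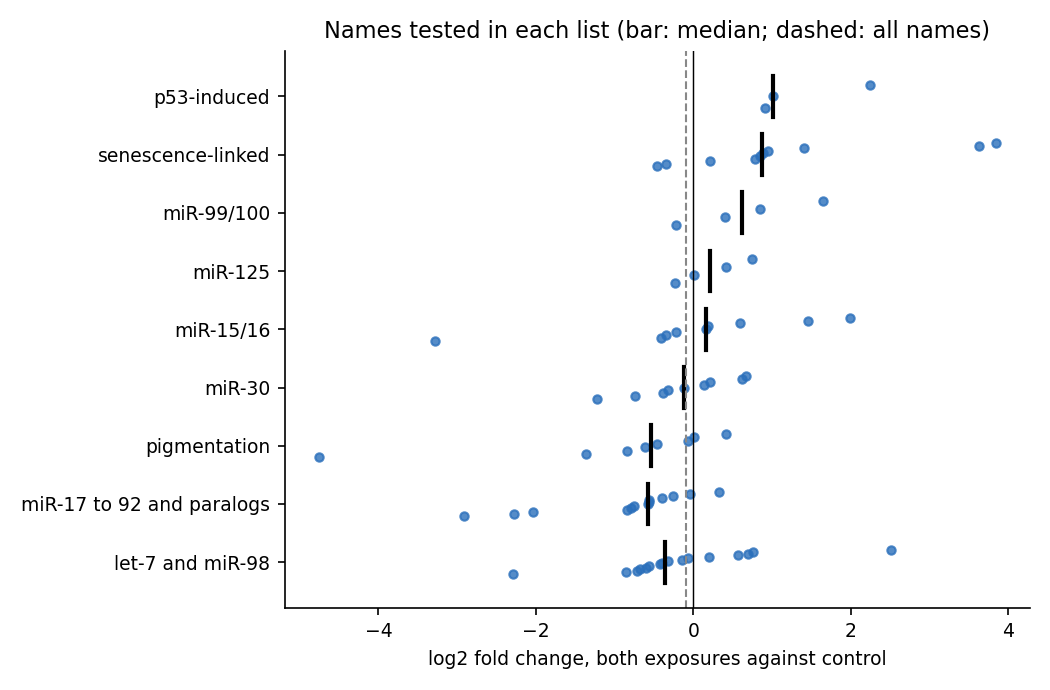
Log2 fold change of both exposures against control for each tested name (points) in 9 lists, with the median of the list (bar) and of all 248 names (dashed line, −0.09). In the list of miR-17-92 and its paralogs, 12 of 13 points lie left of 0, and in the senescence-linked list 8 of 10 lie right of it.

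Most calls for 1 exposure alone depended on single libraries. With L-Tyr, miR-129-5p and miR-30d-5p were called in 3 of 9 fits that left out 1 library, and each lost its call without any control or L-Tyr library, with adjusted p from 0.0997 to 0.281 for miR-129-5p and from 0.0896 to 0.281 for miR-30d-5p, and with the size factors of DESeq2 (0.0502 for both). With L-Tyr, miR-129-3p lost its call without control replicate 1 or 2 or L-Tyr replicate 1 or 3 (adjusted p from 0.0737 to 0.179). The remaining higher call with L-Tyr, miR-1249-3p at a log2 fold change of 1.72, held in 4 of the 9 fits. It was lost without any 1 control library or without L-Tyr replicate 1 or 3 (adjusted p from 0.0997 to 0.281). The size factors of DESeq2 also removed it (0.0502). With 5-Brd-2′-dU, miR-129-5p was called in all 9 such fits, and miR-22-3p in 7, the exceptions being those without control replicate 1 or 2 (adjusted p from 0.0635 to 0.0785). miR-99b-5p was called in 4, and not without control replicate 1 or 2, L-Tyr replicate 1 or 3 or 5-Brd-2′-dU replicate 1 (adjusted p from 0.0569 to 0.177). Of the other calls with 5-Brd-2′-dU, miR-21a-5p held in all 9 fits, miR-211-3p in 6, and miR-455-3p, miR-143-3p and miR-126a-3p in 2 each. miR-211-5p and miR-335-3p held in 1 fit each. The call of miR-129-3p held in 1 fit, without L-Tyr replicate 2, and that of miR-130b-5p in 1, without control replicate 3. Those of miR-191-5p and miR-30a-3p held in 1 fit, without 5-Brd-2′-dU replicate 1, and that of miR-25-3p in 0. Without replicate 3 of 5-Brd-2′-dU, the adjusted p from edgeR was 0.0838 for miR-129-3p and miR-130b-5p, 0.0958 for miR-191-5p, 0.138 for miR-30a-3p and 0.107 for miR-25-3p. miR-3963-5p was called in all 9 fits for each exposure.

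Between the agents, 3 names differed by the same test (1.21%), and all 3 were lower with 5-Brd-2′-dU than with L-Tyr, with estimates on opposite sides of control cells. miR-211-5p lay at 10139, 14067 and 15713 CPM in control cells, 24828, 24152 and 20203 CPM with L-Tyr and 7533, 6510.1 and 7112 CPM with 5-Brd-2′-dU. The L-Tyr libraries lay above the controls and the 5-Brd-2′-dU libraries below them, so that the shared log2 fold change was −0.06 (SE 0.184). Both arms came from the Trpm1 intron at chr7:71350692-71350797 (plus strand), and the differences between the agents were −1.71 for the 5p arm (adjusted p = 0.00143) and −2.77 for the 3p arm (adjusted p = 0.00192). miR-1249-3p, whose hairpin overlaps an exon of 5031439G07Rik at chr15:84781956-84782053 (minus strand), lay at 9250.4, 4246 and 10258 CPM with L-Tyr against 2137, 2258 and 2795 CPM in control cells and 2104, 916 and 1703 CPM with 5-Brd-2′-dU, a difference between agents of −2.33 (adjusted p = 0.00556). For the 4 names called in both exposures together, the difference between agents did not pass (adjusted p from 0.172 to 0.976).

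**Figure D5:**
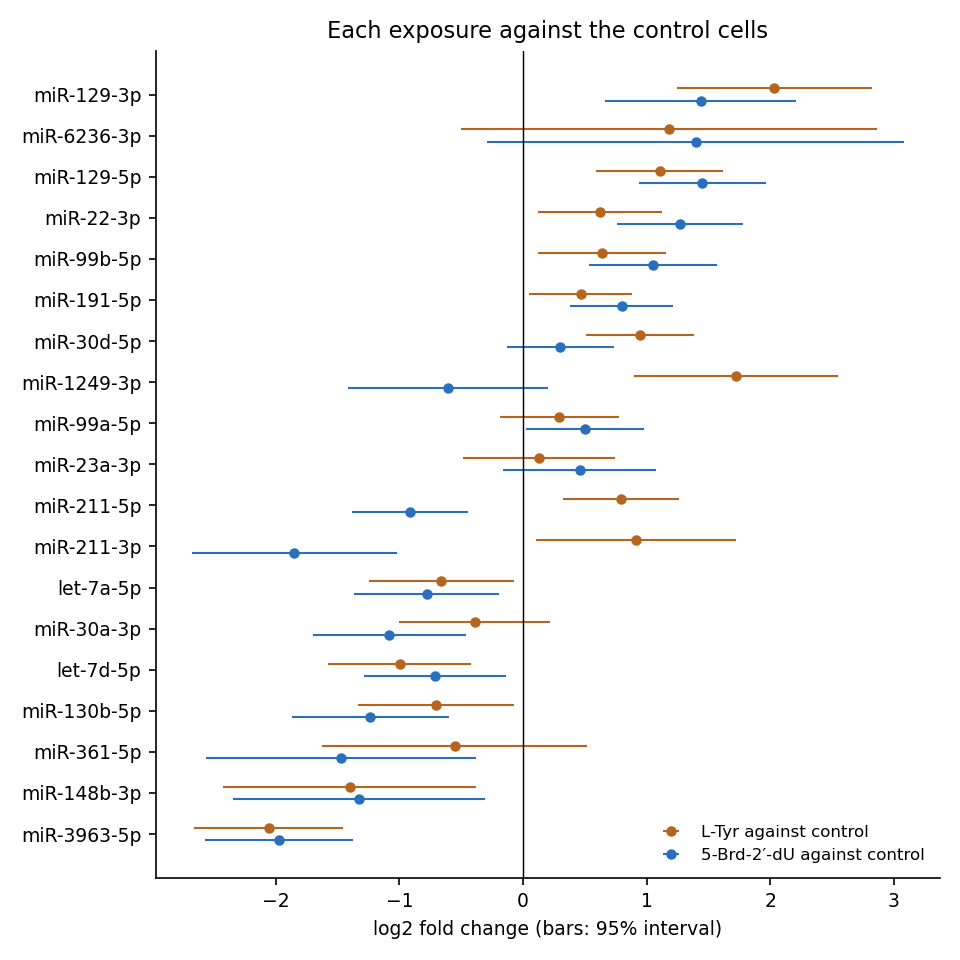
Log2 fold change of L-Tyr and of 5-Brd-2′-dU against the same control libraries for 19 named miRNAs (points, with 95% intervals), ordered by the value for both exposures together. The points lie on opposite sides of 0 for miR-211-5p (0.79 and −0.92), miR-211-3p and miR-1249-3p.

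Of the miRNAs the study names as moving alike, a list chosen on these samples and so not independent evidence, miR-361-5p lay at −1.01 (SE 0.411, adjusted p = 0.249) with 1791, 2333 and 2652 CPM in control cells and from 439 to 2316 CPM, with a median of 1149, in exposed cells. L-Tyr replicate 2 reached the controls. miR-23a-3p lay at 21703, 21864 and 22375 CPM in control cells and from 19737 to 45738 CPM, with a median of 25183, in exposed cells, with a log2 fold change of 0.29 (SE 0.247, adjusted p = 0.638). Its highest library was replicate 3 of 5-Brd-2′-dU, without which the value was 0.08, and exposed libraries lay on both sides of the controls.

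Markers of other cell types were highest in replicate 3 of 5-Brd-2′-dU for most lists, and lower in the other exposed libraries. The erythroid pair miR-486a-5p and miR-486b-5p, which share all their tags, had 0 counts in the 3 control libraries, and miR-486a-5p had 15, 28 and 0 counts with L-Tyr and 41, 15 and 43 with 5-Brd-2′-dU; its mean in exposed cells was at least 30.3-fold higher than 3 counts over the control group allow, with an adjusted p of 0.165. These names passed the filter only through the exposed libraries, so that they had to be higher there. The summed erythroid markers, 4 hairpins, ran from 0 to 15.4 CPM of the unscaled total in control cells, 17.6 to 547 with L-Tyr and 71.7 to 4911 with 5-Brd-2′-dU, the highest being replicate 3. L-Tyr replicate 2 had 65 counts of the erythroid miR-451a-5p, against 2 and 3 in the other L-Tyr libraries. It also had 18 counts of the leukocyte marker miR-150-5p and 20 of the hepatic marker miR-122-5p, with 0 in the other L-Tyr libraries. Of the leukocyte markers miR-142a-3p was at 0 in every library, and the summed 4 hairpins ran from 5.12 to 45.3 in control cells from 0 to 76.9 in 5 exposed libraries, overlapping the controls, and stood at 1125 in replicate 3 of 5-Brd-2′-dU. The endothelial marker hairpin ran from 54.0 to 118 in control cells from 107 to 316 in 5 exposed libraries, and stood at 5432 in replicate 3 of 5-Brd-2′-dU. Without that library the log2 fold change of miR-126a-3p was 0.90 in place of 2.61. Their part in the shared response was not tested. With miR-143 left out of the library totals, an alternative chosen after seeing the data, 4 names were again called for both exposures.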

How the data were processed

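The authors lysed B16F1 cells in TRIzol, made TruSeq small RNA libraries and sequenced them in single reads, and their processing notes name mm9, FastQC, MultiQC and DESeq2. The deposited table holds raw counts of sequence tags per library, made by the authors with the BaseSpace Small RNA app against mm9 and miRBase. A table of the same counts divided by size factors, and tables of the authors' own DESeq2 comparisons (fold changes, p-values and group means), were not used here. Rows of predicted hairpins were dropped, and tags were summed by hairpin name and arm (start number under 35 as 5p, otherwise 3p), with numbered copies merged because the same tag had been split between them.

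The counts were fitted in R 4.3.3 with edgeR 4.0.16 (TMM, filterByExpr, quasi-likelihood test) on all 9 libraries with 3 groups. Contrasts were the mean of both exposures, each exposure alone, and the difference between exposures, with calls at a Benjamini-Hochberg adjusted p under 0.05. SE and 95% intervals belong to log2 fold changes. Shares were compared with exact permutation tests. DESeq2 1.42.0 was an alternative. The fit was run on 1 simulated data set of both exposures against control, with 215 names tested. On log2 changes of 1, 2 and 3 it called 0 of 14 names (0%), 6 of 15 (40.0%) and 11 of 17 (64.7%). There were 0 false calls. No library was simulated to stand apart, so these figures are not error rates of the real data. The depth limits what a count of 0 allows to 7.15 to 21.4 CPM (3 counts), which covers counting error only, since reads copied by PCR are not independent molecules. The square root of the common dispersion was 0.921, and the median log2 fold change of all names was −0.09 with TMM, 0.02 with total counts and −0.05 with DESeq2's size factors.

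Hairpin positions come from an exact match of RefSeq hairpins to NCBIM37, or from GENCODE vM1 for Mir30d and Mir99b, and host genes from GENCODE vM1. The members, the lists of miRNAs and the rule for naming were chosen with earlier results of these data known. Named were all calls, up to 6 more names in each direction without overlap and with the smallest p, the miRNAs the study names, names that differed between exposures, and up to 3 names of highest level per list; others are named because of what their values showed. Library measures (7, such as the share of the 3p arm and tag length) were compared between exposed and control libraries with miR-3963 and miR-143 left out. Exact permutation tests gave adjusted p from 0.25 to 0.667. The smallest exact p is 0.0238, so 1 fully separated measure alone could not pass. Over all known-hairpin counts, mean tag length was 18.98 to 19.12 nt in control and 19.22 to 19.41 nt in exposed libraries. The 3p share was 30.3% to 33.9% and 34.4% to 54.5%. Same-numbered libraries did not deviate together.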

Additional observations from a re-analysis of the deposited data

Results flagged for a closer look

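In 3 names the response to 5-Brd-2′-dU differed from that to L-Tyr by edgeR's test of the difference itself. On the log2 scale, 5-Brd-2′-dU minus L-Tyr was −1.71 for miR-211-5p, −2.77 for miR-211-3p and −2.33 for miR-1249-3p, and for each of them all 3 libraries of 5-Brd-2′-dU lay below all 3 of L-Tyr. Leaving out replicate 3 of 5-Brd-2′-dU again gave 3 calls.

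The predicted hairpins, which were left out of the comparison, held a larger mean share of counts after exposure. Exposed and control libraries were separate only while miR-3963 was in the total. They held 2.02% ± 0.441 (SD, n = 6) of the counts in exposed libraries and 1.43% ± 0.369 (SD, n = 3) in control libraries, with all exposed libraries above all controls (two-sided exact permutation test, p = 0.0238, the smallest the design allows). With miR-3963 left out of the total the shares were 2.12% and 1.74% and overlapped (exact permutation test, p = 0.357).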

How the results depend on the processing

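For both exposures against control there were 4 calls. There were 14 without a filter, 8 with a mean count of at least 50, 19 with DESeq2's Wald test and 1 with tags under 1 hairpin only. That last setting drops the tags shared by numbered copies, as in miR-129, but miR-22-3p, with 1 hairpin, also lost its call there, and the cause was not tested. Leaving out single libraries gave 1 to 6 calls; a group of 2 also lets more names through the filter, so that 266 to 288 names were tested. miR-3963-5p was called in all 22 alternatives that hold it. For L-Tyr (5 calls, 4 higher), DESeq2's size factors gave 2 (1 higher), no filter 8, the Wald test 18, arms from sequence 2, tags under 1 hairpin 1, added mature-name entries 2, and single libraries left out 1 to 6. For 5-Brd-2′-dU (16 calls, 10 higher and 6 lower), no filter gave 32, the Wald test 25, single tags 3 and single libraries left out 3 to 11, with 6 without its replicate 3; DESeq2's size factors gave 10 higher and 3 lower, and total counts 9 and 2. For 5-Brd-2′-dU against L-Tyr (3 calls), no filter gave 24, the Wald test 26, single tags 8 and single libraries left out 3 to 7. Of the 23 names without overlap, 12 remained tested and separate at a mean count of at least 50.

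The difference in the miR-3963 share ran from −14.7 to −10.4 percentage points with single libraries left out, and relative to all other names from −2.27 to −1.85 on the log2 scale; without a control library the smallest exact p is 0.0714. With a block for the replicate number, calls were 3 for both exposures, 3 for L-Tyr, 5 for 5-Brd-2′-dU and 3 between agents, but the correlations of same-numbered libraries (−0.11 to 0.04) do not show that the numbers pair the samples. Of the named miRNAs, miR-211-3p reversed (0.11) when exposed libraries were taken as 1 group. The uncalled miR-211-5p was also positive there (0.18 in place of −0.06), and in 4 of 23 alternatives in all. That fit has 1 mean level for all exposed libraries, while the main contrast averages the log2 fold changes of the agents. These had opposite signs in both arms. The cause of the other sign changes was not tested.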
